A study of Mus musculus with 5 samples.

Results

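The genes described here are the cerebellins and a small group of genes that cerebellar granule neurons use as they mature: Cbln1, Cbln2, Cbln3, Cbln4, Etv1, Fat2, Slc17a6, Slc17a7 and Camk4. They were chosen by name, as all probe sets whose single gene symbol in the platform annotation is one of these 9. This gave 16 of 45101 probe sets, for 8 of the 9 genes. The 3 probe sets annotated to Etv1 also carry a second gene symbol and were not used, so Etv1 has no value here. Of the 8 genes, 7 passed the filter on low signals (a mean of at least 100 over the arrays) and were among the 14109 genes tested; Cbln2 did not.

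Gene expression was measured on 5 Affymetrix arrays from mouse: 4 medulloblastomas, which are tumours of the cerebellum, and 1 cerebellum whose title gives P5, read as postnatal day 5. The title of the series speaks of tumours that arose in Cxcr6 mutant mice and of a Smoothened inhibitor; the single arrays are labelled with neither genotype nor treatment, and the tumours with no age, so none of these was compared and an effect of age cannot be told apart from one of tumour. The titles of medulloblastomas 1 and 2 start with ken, those of medulloblastomas 3 and 4 and the cerebellum with hmk; what the prefixes stand for is not given. Nothing in the labels says whether the tumours came from separate animals, so the spread between them may be technical in part. As a sign of RNA integrity, signals near the 3' and the 5' end of 2 control transcripts were compared: their ratio peaked in medulloblastoma 1 (1.45 for actin, 0.946 for Gapdh) and was lowest in medulloblastoma 3 (1.21 and 0.731). Zic1, a transcription factor gene of the granule lineage, was bright on every array, with signals from 16486 to 24337.

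Granule neurons are born from precursors at the surface of the cerebellum, move inwards after birth and send out parallel fibres, which form glutamate synapses on Purkinje cells. Cerebellins are secreted proteins of the C1q family. Cbln1, released from parallel fibres, binds neurexins on the fibre and helps to hold its synapse with the Purkinje cell together; Cbln3 is made by granule neurons and is secreted in a complex with Cbln1. Slc17a6 and Slc17a7 encode the transporters VGLUT2 and VGLUT1, which load glutamate into vesicles; parallel fibres use the first early and shift to the second as they mature. RNA from bulk tissue was measured throughout, so fewer cells of a type and less RNA per cell cannot be told apart.

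The sequences around the starts of Cbln3, Fat2 and Slc17a7 are printed because these genes shared 1 order of signals among the tumours, given further on. RefSeq (GRCm38.p6) promoter entries were found for 6 of the 9 genes; each entry runs from 250 bases before the start of the gene to 50 bases after it, and is written 5′ to 3′ along the gene. Capitals mark TTGGC on either strand, the half-site of the nuclear factor I proteins, which act in granule neuron maturation.
Cbln3, chr14:55884207-55884506, minus strand: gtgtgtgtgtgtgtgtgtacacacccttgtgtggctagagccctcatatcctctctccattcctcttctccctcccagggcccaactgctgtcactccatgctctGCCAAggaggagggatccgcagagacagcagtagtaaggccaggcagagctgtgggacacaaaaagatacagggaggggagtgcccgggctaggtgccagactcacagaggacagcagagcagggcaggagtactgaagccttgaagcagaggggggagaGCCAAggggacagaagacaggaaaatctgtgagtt
Fat2, chr11:55312208-55312507, minus strand: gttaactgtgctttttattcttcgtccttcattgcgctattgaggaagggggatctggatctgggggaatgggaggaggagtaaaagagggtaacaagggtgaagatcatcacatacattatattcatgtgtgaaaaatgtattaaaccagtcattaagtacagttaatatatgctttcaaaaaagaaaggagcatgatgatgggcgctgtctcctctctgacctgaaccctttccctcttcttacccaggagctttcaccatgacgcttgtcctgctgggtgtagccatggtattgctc
Slc17a7, chr7:45163671-45163970, plus strand: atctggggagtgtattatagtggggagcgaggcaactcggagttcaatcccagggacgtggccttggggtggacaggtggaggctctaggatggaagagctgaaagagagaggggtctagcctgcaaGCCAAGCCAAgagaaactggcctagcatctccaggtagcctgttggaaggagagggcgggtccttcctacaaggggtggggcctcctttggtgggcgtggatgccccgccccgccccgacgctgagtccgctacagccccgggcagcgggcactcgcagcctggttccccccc
The half-site TTGGC occurred 2 times in the Cbln3 window, 2 times in that of Slc17a7, as a directly repeated pair, and 0 times in that of Fat2. It occurred in 46.7% of all 32851 promoter entries. The letters TGACG, the half-site bound by CREB, were found 1 time in the Fat2 window and 0 times in the other printed windows, and occurred in 20.8% of entries. This Fat2 match and the second TTGGC match of Cbln3 lie in the 50 bases after the start of the gene. An E-box, CANNTG, the element bound by Atoh1 and Neurod1, was found 1 time in each, and occurred in 72.3% of entries. Both strands were searched, each motif on its own, so matches of different motifs may overlap. No motif was shared by these 3 windows beyond the E-box, which most entries hold. Slc17a6 and Cbln4, which do not have the shared order of tumours, were also searched. TTGGC occurred 5 times in the first Slc17a6 window, 0 times in its second and 0 times in that of Cbln4. TGACG occurred 1 time in the second Slc17a6 window and 1 time in that of Cbln4. Cbln1 and Camk4, which have the order, had no promoter entry.

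Cbln3 stood furthest from the cerebellum of the 7 tested genes. Its brighter probe set read 8384, 3888, 1692 and 2876 in medulloblastomas 1 to 4, whereas the cerebellum read 382. All 4 tumours lay above the cerebellum, by 4.43-fold in medulloblastoma 3 up to 21.9-fold in medulloblastoma 1, and the tumours themselves spanned a 4.95-fold range. Differences are given from here on the scale of log2(signal + 32), which understates the change of dim genes, with the standard error of the fit. The mean difference of Cbln3 was 3.11 ± 0.69 (SE, n = 4 tumours against 1 array), the 20th largest increase among 14109 genes, with an adjusted p of 0.109 (limma, Benjamini-Hochberg over all genes). That misses the threshold of 0.05; the unadjusted p was 0.00189.

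The second Cbln3 probe set was dimmer and gave 1731, 1073, 314 and 408 against 169. It too was above the cerebellum in each tumour, and put the tumours in the same order, with a smaller mean difference of 1.87. The mean over both probe sets was 2.49. Without medulloblastoma 1, whose end-to-end signal ratios were the highest, the difference at the brighter probe set was 2.70. Leaving out medulloblastomas 2, 3 or 4 gave 3.07, 3.47 and 3.22. Within the hmk arrays the Cbln3 difference was 2.43. The ken tumours, set against the hmk cerebellum because no ken cerebellum was analysed, gave 3.79. Each of these prefix fits estimates the spread from only 2 tumours.

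Cbln1, which Cbln3 needs for secretion, did not follow it in level against the cerebellum. The brightest of its 3 probe sets read 7363, 4689, 2791 and 3159 in medulloblastomas 1 to 4; the cerebellum read 6481. Medulloblastoma 1 was slightly above the cerebellum, medulloblastoma 2 below it, and the hmk pair lowest. The mean difference was -0.63 ± 0.47 (limma, adjusted p = 0.545). Within the hmk arrays it was -1.12, whereas the ken pair against the same cerebellum gave -0.14.

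The other Cbln1 probe sets also had 1 tumour above and 3 below the cerebellum. Signals were 5930, 3496, 2301 and 2352 against 4489 at the second, and 4810, 3346, 1942 and 1951 against 3512 at the third. The difference of Cbln3 from the cerebellum exceeded that of Cbln1 by 4.16, 3.71, 3.26 and 3.84 in medulloblastomas 1 to 4.

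Cbln2, a cerebellin of neurons outside the granule layer, read 65.0, 51.7, 43.2 and 76.9 in medulloblastomas 1 to 4 at its only probe set; the cerebellum read 217. Every tumour read below the cerebellum, but signals this low were not shown to be above background, so no fold is given. Its mean signal of 90.7 was under the filter, so it was left out of the test; with no filter its difference was -1.46 and was not called (limma, adjusted p = 0.279). Cbln4, a cerebellin that can bind the netrin receptor Dcc, ran the other way. It read 456, 579, 667 and 949 against 381, above the cerebellum in all 4 tumours. The mean difference was 0.70 ± 0.39 (adjusted p = 0.425), which misses the threshold. Medulloblastoma 1 was its lowest tumour, whereas it was the highest for Cbln1 and Cbln3.

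**Figure D1:**
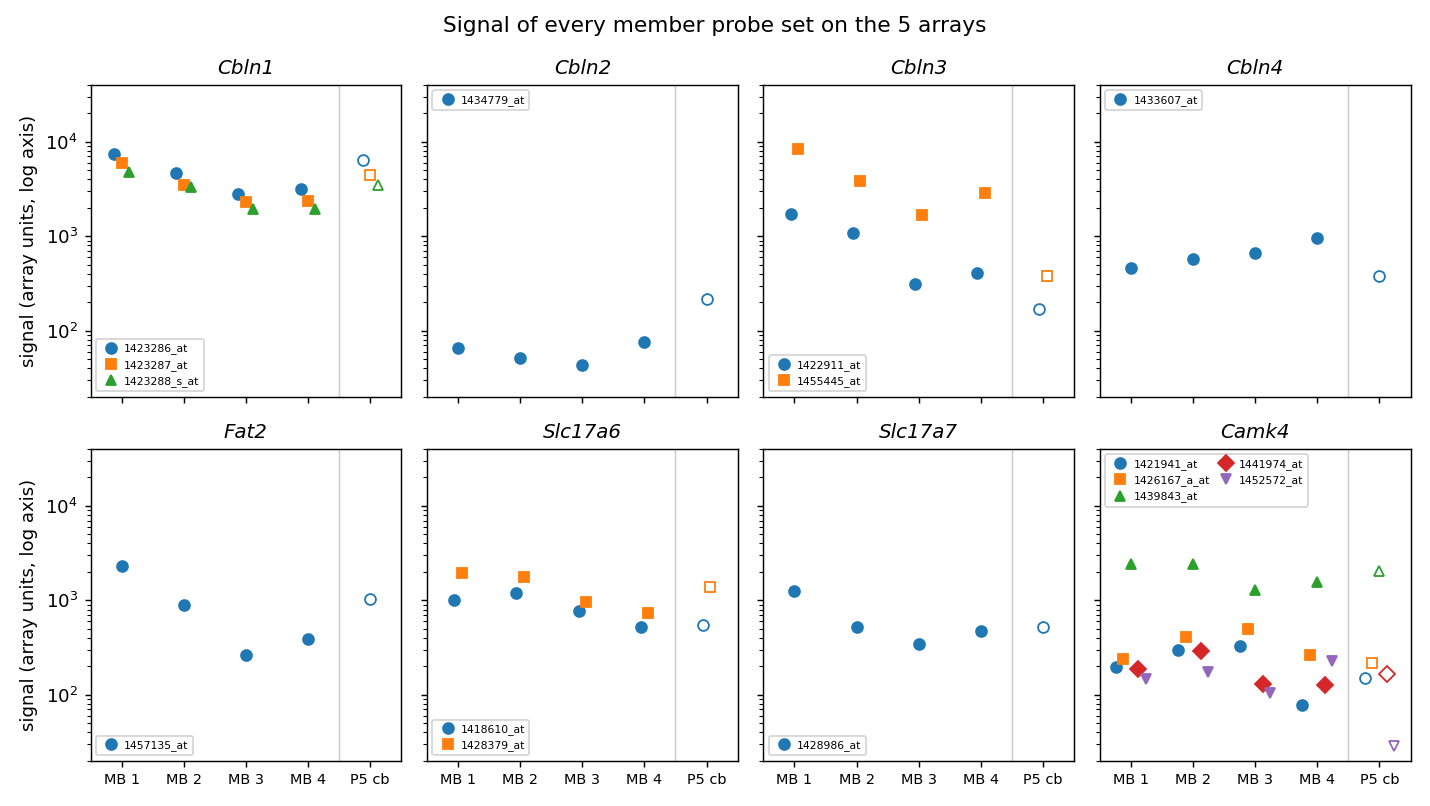
Signal of each of the 16 probe sets (symbols, named in each panel) on the 4 medulloblastoma arrays (MB 1 to MB 4, filled) and the P5 cerebellum array (P5 cb, open), on a log axis in array units; levels of different probe sets cannot be set against each other. Both Cbln3 probe sets sit above the cerebellum in every tumour and Cbln2 sits below it, while Fat2 runs from 2304 in medulloblastoma 1 to 262 in medulloblastoma 3.

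Fat2 encodes a giant cadherin that granule neurons place on their parallel fibres. Its only probe set gave 2304, 885, 262 and 386 for medulloblastomas 1 to 4, with the cerebellum at 1044. The tumours lay on both sides of the cerebellum, 2.21-fold above it in medulloblastoma 1 and 3.98-fold below it in medulloblastoma 3. Fat2 was the most variable of the tested members, with an SD over the tumours of 1.33 on the log2 scale and an 8.79-fold range; 0.645% of the genes tested had an SD as large, and the median SD over all of them was 0.31. The mean difference of -0.59 ± 0.94 (limma, adjusted p = 0.793) averages over tumours on both sides. It was -1.62 within the hmk arrays and 0.44 for the ken pair. It was -1.15 without medulloblastoma 1, -0.33 without medulloblastoma 4 and -0.16 without medulloblastoma 3.

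Slc17a7, the transporter gene of mature parallel fibres, read 1261 in medulloblastoma 1, 527 in medulloblastoma 2, 341 in medulloblastoma 3 and 476 in medulloblastoma 4, against 519. Medulloblastoma 1 alone stood apart, 2.43-fold above the cerebellum, and the mean difference was 0.14 ± 0.59 (limma, adjusted p = 0.926). Without medulloblastoma 1 it turned to -0.22. Slc17a6, the transporter gene of the early fibres and of other glutamate neurons, had signals of 1954, 1748, 949 and 741 against 1391 at the brighter of 2 probe sets. Both ken tumours were above and both hmk tumours below the cerebellum, with a mean of -0.15 ± 0.51 (adjusted p = 0.906).

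The second Slc17a6 probe set differed: at 998, 1198, 779 and 522 against 549 it was above the cerebellum in 3 of 4 tumours, and the mean over both probe sets was 0.21. The shift from Slc17a6 towards Slc17a7 was read as the difference of their log2 differences, at the brighter Slc17a6 probe set only. It was 0.75, -0.30, -0.03 and 0.76 in medulloblastomas 1 to 4, positive in 2 tumours and negative in 2. No common shift between the transporters was thus seen at that probe set, and the second was not used for it.

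Camk4 encodes a calcium/calmodulin-dependent kinase that phosphorylates CREB and is abundant in granule neurons. The brightest of its 5 probe sets gave 2432, 2421, 1303 and 1579 against 2039. As with Slc17a6, the ken tumours were above and the hmk tumours below the cerebellum, with a mean of -0.12 ± 0.37 (limma, adjusted p = 0.897). The 4 other probe sets were dim, with mean differences from 0.06 to 1.65, and at 2 of them all 4 tumours were above the cerebellum. The dimmest read 146, 175, 104 and 231 against 28.5, the last under the constant of 32 added before taking logs; it gave the largest of these differences. With all 5 averaged the Camk4 difference was 0.51 (adjusted p = 0.535).

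**Figure D2:**
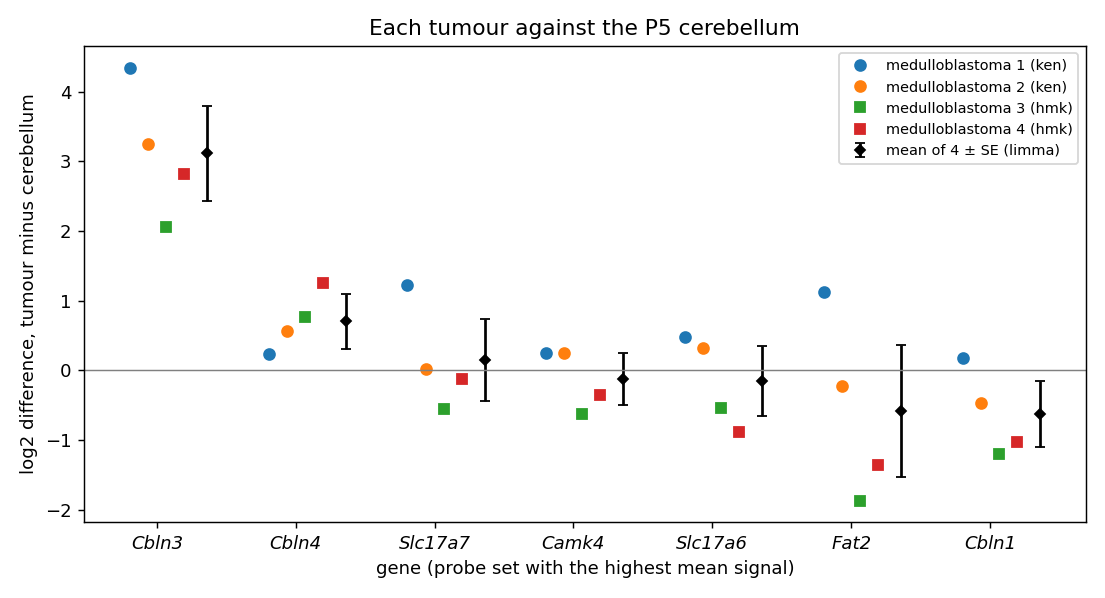
Difference of each medulloblastoma from the P5 cerebellum, in log2(signal + 32), for the 7 tested genes, with circles for ken and squares for hmk tumours and black diamonds for the mean of 4 tumours ± SE from limma. Cbln3 lies between 2.06 and 4.34 in the tumours; apart from Cbln3 and Cbln4, each gene has tumours on both sides of 0.

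Of the 7 tested genes, 0 were called at an adjusted p under 0.05 (limma), and 1, Cbln3, had an unadjusted p under 0.05; over all genes 0.489% were called (0.312% higher and 0.177% lower) and 15.2% had such an unadjusted p. The smallest p that an exact permutation test could reach here is 0.2, and the fit knows no spread other than that among the tumours. Over all genes, 69 calls became 831, 2, 16 and 0 when medulloblastoma 1, 2, 3 or 4 was left out. Cbln3 was the 1 member at least 2-fold above the cerebellum in all 4 tumours, a bound that 2.01% of genes reached. It met the bound at its brighter probe set but not at the second, where medulloblastoma 3 was 1.86-fold above the cerebellum. At least 2-fold below the cerebellum in all 4 were 0 tested members (2.63% of genes, and 4.64% in either direction). Above the cerebellum in all 4 tumours were 2 of 7, Cbln3 and Cbln4 (25.1% of genes), and below it in all 4 were 0 of 7 (30.8% of genes). The median difference was -0.12 over the 7 and -0.07 over all genes tested. With only 7 genes, these counts against the cerebellum do not set the group apart from all genes tested. Furthest from the cerebellum of the 7 was Cbln3.

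The tumours also differed among themselves: the SD over the 4 tumours had a median of 0.66 over the 7 genes and 0.31 over all genes tested. In Cbln1, Cbln3, Fat2, Slc17a7 and Camk4, 5 of the 7 tested genes, the signals ran in the order medulloblastoma 1, 2, 4 and 3 from high to low; 8.26% of all genes had this order. These counts over genes use the brightest probe set of each. At the level of probe sets, 8 of 16 had the order, several of them repeat readings of Cbln1 and Cbln3. The share over all probe sets was not counted. Camk4 had it only at its brightest probe set, where medulloblastomas 1 and 2 were close (2432 and 2421). Its dim probe sets ran in other orders, some with medulloblastoma 3 as the highest tumour (328 and 496). The count over genes was 4 of 7 after quantile normalization (7.95% of all genes) and with probe sets averaged (7.79%). It was 5 of 7 with equal medians (6.35%). In 6 of 7, all but Cbln4, both ken tumours were above both hmk tumours (23.3% of genes). That count held under quantile normalization (22.9% of genes) and equal medians (21.8%). Cbln4 had both ken tumours below both hmk tumours, as did 21.5% of genes. The median over the 7 was 0.48, 0.24, -0.56 and -0.36 in medulloblastomas 1 to 4. These genes were read from the same 5 arrays, and the counts are a description with no test.

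Markers of some other cell types moved with this order. All 6 tested markers of Purkinje cells, the targets of parallel fibres, had the same order of tumours. Their median difference from the cerebellum was -0.17, -1.07, -2.07 and -1.58 in medulloblastomas 1 to 4. Of them, Pcp2 read 6803, 3319, 1496 and 2038 against 7051. Among the 4 tested oligodendrocyte markers 3 had the order, with Mbp, the myelin basic protein gene, at 28288 in medulloblastoma 1 and 7719 to 11445 in the others. Of the 6 tested markers each of inhibitory interneurons, astrocytes, and microglia, 2, 1 and 0 had it, and of 4 endothelial markers 0. It was also that of 1 of 2 tested markers of unipolar brush cells and of 2 of 5 of cerebellar nuclei and other glutamate neurons. The first of these, Calb2, is also in the list of mature granule neuron genes, and Gad1 is counted under both Purkinje cells and interneurons. Medulloblastoma 1, first in the order, also had the highest ratios of 3' over 5' signal, and medulloblastoma 3, last in it, the lowest. The part of other cells and of RNA quality in the members' order was not tested.

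Against the cerebellum the same marker lists ran in both directions. Purkinje cell markers had a median of -1.26, with 4 of 6 below the cerebellum in all 4 tumours and 0 called, although Pvalb, a calcium-binding protein gene of Purkinje cells and interneurons, had the largest difference and was above it in every tumour (2.38 ± 0.58; limma, adjusted p = 0.131). Interneuron markers had a median of -1.38 with 0 called. Slc32a1 had the largest difference of them, with medulloblastoma 3 at 11.7, under the added constant of 32. Eomes, a factor of unipolar brush cells that also make glutamate, read 336, 282, 223 and 183 against 1176 (-2.10 ± 0.39, adjusted p = 0.0745). Calb2, the other tested marker of unipolar brush cells, went the other way, with 0.71 ± 0.77 and 3 of 4 tumours above the cerebellum. The median of that list was -0.69. Markers of cerebellar nuclei and other glutamate neurons had a median of -0.73 over 5 tested. Of them Lhx2 was called higher (3.90 ± 0.38, adjusted p = 0.0197), from a cerebellum signal of 13.8, under the same constant. The neurofilament genes Nefl (-3.32 ± 0.68) and Nefm (-2.66 ± 0.66) were below the cerebellum in all 4 tumours but were not called by limma, and Nefh had -0.70 ± 0.64. Astrocyte markers had a median of -1.79; Aldh1l1 and Aqp4 were called lower, and Gdf10 had the largest difference (-2.82 ± 0.62). S100b, of the same list, was above the cerebellum in all 4 tumours (1.62 ± 0.35; limma, adjusted p = 0.109), and Gfap had -0.22 ± 0.26. Oligodendrocyte markers had a median of 0.42: Mobp was called higher, Mog had 0.57 ± 0.52, Mbp 0.27 ± 0.63 and Mag -0.35 ± 0.42. The microglia genes Ctss, C1qa and Tyrobp were called higher, and of the endothelial markers, 0 of them called, Pecam1 had the largest difference (-2.18 ± 0.58).

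**Figure D3:**
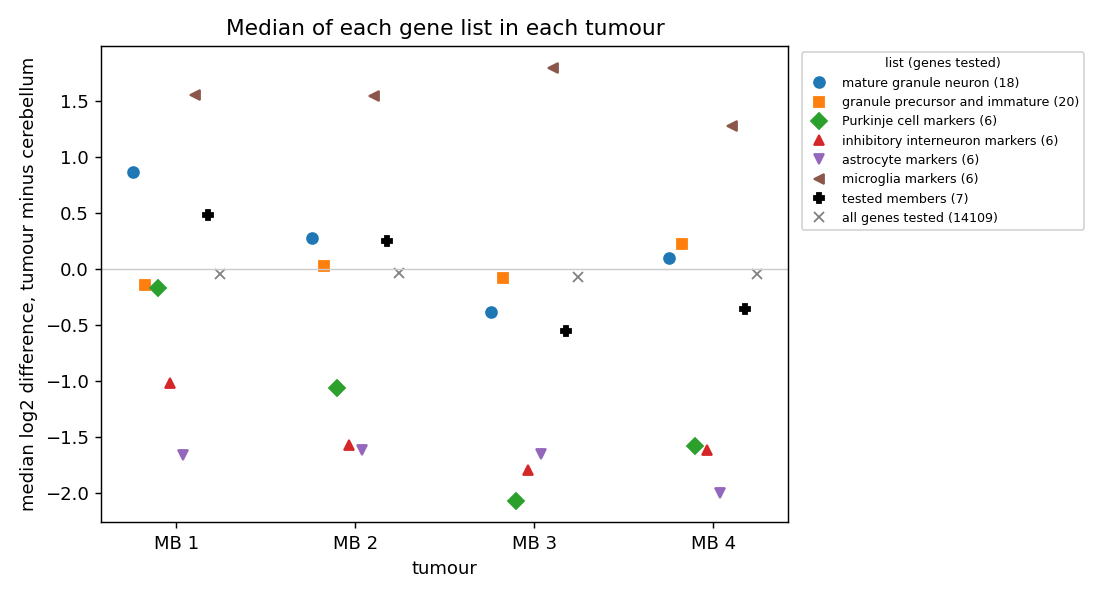
Median log2 difference from the P5 cerebellum of the tested genes of 6 of the lists, in each of the 4 medulloblastomas (MB 1 to MB 4), with the 7 tested members in black and all 14109 genes as grey crosses. The mature granule neuron list, the members and the markers of Purkinje cells and of inhibitory interneurons are highest in medulloblastoma 1 and lowest in medulloblastoma 3, as are, among lists not drawn, those of unipolar brush cells, oligodendrocytes and cerebellin receptors.

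Among 20 other genes of mature granule neurons, 18 were tested, with a median difference of 0.36 against -0.07 over all genes. Without medulloblastoma 1 the list's median was 0.19. Of the 18, 1 was called higher (Gabra6) and 0 lower, while 8 were above and 4 below the cerebellum in all 4 tumours. Gabra6, the GABA-A receptor subunit typical of mature granule neurons, read 6856, 3252, 1664 and 2402 against 164, a rise of 3.99 ± 0.63 (limma, adjusted p = 0.0468). Cbln3 ran beside it: its difference was smaller than that of Gabra6 by 0.79, 0.82, 1.06 and 0.82 in medulloblastomas 1 to 4. The next largest differences were those of Grin2c, an NMDA receptor subunit gene of mature granule neurons, at 2106, 790, 289 and 381 against 121 (2.19 ± 0.88, adjusted p = 0.305), and of Gabrd, the subunit that partners Gabra6, at 1789, 688, 275 and 432 against 126 (2.06 ± 0.80, adjusted p = 0.291).

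Not all genes of mature granule neurons were on this side. Neurod2, a transcription factor of differentiated neurons, read 1951, 830, 658 and 436 against 2962 (-1.80), and Cadps2, a vesicle release factor, read 3326, 1620, 699 and 1523 against 4296 (-1.45). Medulloblastoma 1 was the highest tumour for 16 of the 18 genes (30.9% of all genes). The order 1, 2, 4, 3 was that of 9 (8.26% of all genes), or of 7 with equal medians (6.35%). The list's median was 0.86, 0.28, -0.38 and 0.09 in medulloblastomas 1 to 4, and -0.06 within the hmk arrays. It therefore lay above the cerebellum in medulloblastoma 1 and below it in medulloblastoma 3.

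**Figure D4:**
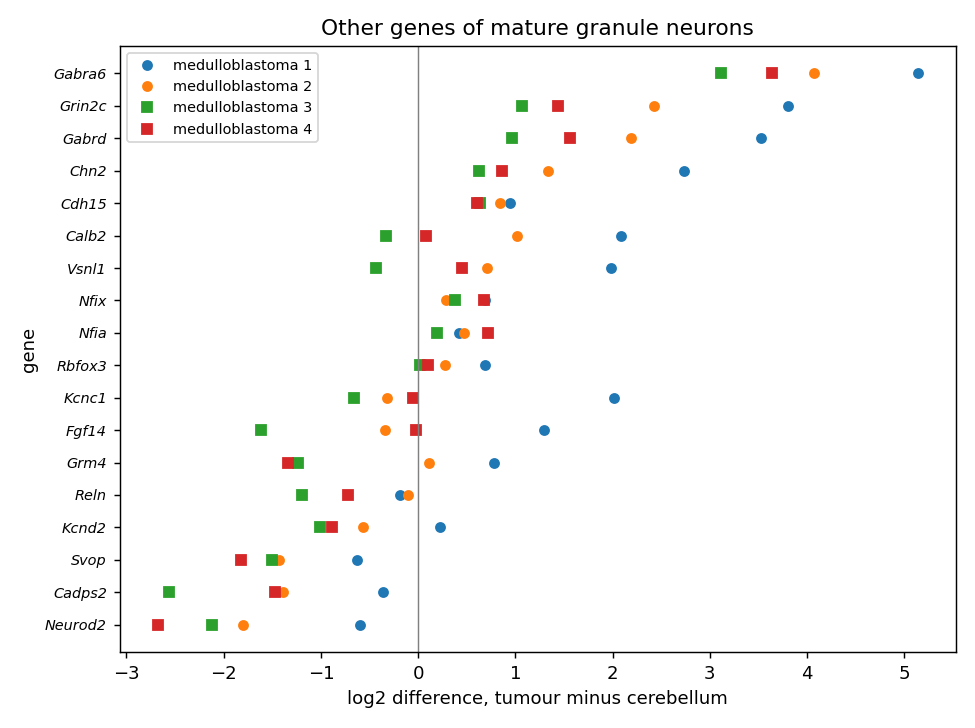
Difference of each medulloblastoma from the P5 cerebellum, in log2(signal + 32), for the 18 tested genes of the mature granule neuron list other than the members, sorted by their mean. Gabra6 lies furthest to the right in all 4 tumours, and medulloblastoma 1 is the rightmost for 16 of the 18 genes.

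The list of granule neuron precursors and immature granule neurons gave no such order: 2 of 20 tested genes had it, and its median difference was -0.0035. The precursor factor gene Atoh1 rose (2.81 ± 0.40, adjusted p = 0.0336) and Unc5c, a netrin receptor gene, fell (-2.46 ± 0.37, adjusted p = 0.0427), both by limma; 7 genes were above and 8 below the cerebellum in all 4 tumours. Atoh1 had its lowest tumour signal, 4178, in medulloblastoma 1 and its highest, 9505, in medulloblastoma 3, the reverse of the extremes of the 5 members in the order 1, 2, 4, 3. The cyclin gene Ccnd1 was the third of the list by size, at 23239, 8391, 9962 and 8033 against 2407 (2.20 ± 0.52, adjusted p = 0.125).

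The partners of the cerebellins were measured in part. Of 11 receptors and C1q-like relatives, 7 were tested, with 0 called (2 at an unadjusted p under 0.05) and a median of -0.13. C1ql1, a secreted relative of the cerebellins, read 3200, 4108, 3348 and 5310 against 1308 (1.56 ± 0.30; limma, adjusted p = 0.0869). The gene of the GluD1 receptor, Grid1, read 192, 198, 153 and 124 against 361 (-1.0 ± 0.44), and C1ql3 read 700, 805, 439 and 573 against 300 (0.96 ± 0.37). Dcc, to which Cbln4 can bind, had the tumours in the same order as Cbln4, at 2018, 3644, 5219 and 6663 against 2552.

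The remaining companion lists, on glutamate supply, the Camk4 pathway, Fat cadherins and ETS factors, held 0 calls in either direction (limma), with 2, 2, 1 and 1 genes at an unadjusted p under 0.05. Of 11 tested genes of vesicular transporters and glutamate supply, Slc32a1, the transporter of inhibitory neurons, had the largest difference, at 370, 213, 11.7 and 150 against 943 (-2.54 ± 1.02). Slc1a3, a glial glutamate transporter gene, followed at -1.50 ± 0.26 (limma, adjusted p = 0.0665), then Slc1a6, that of Purkinje cells, at -0.87 ± 0.75; the median was -0.21. The Camk4 pathway, 15 tested genes of the kinase cascade and CREB, had a median of -0.22. Creb1 itself read 2302, 2972, 2879 and 2718 against 1282 (1.06 ± 0.24, adjusted p = 0.114), above the cerebellum in all 4 tumours, the kinase gene Camk1g had -1.65 ± 0.94, with medulloblastoma 3 at 18.1, under the added constant, and Nfatc4, a calcineurin-dependent factor, -1.11 ± 0.35.

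Among 5 tested relatives and partners of Fat2, Fat4 had the largest difference, at 31.8, 57.9, 102 and 86.3 against 324 (-1.86 ± 0.69), the first of these under the added constant, then Fjx1 (-0.82 ± 0.45) and Dchs1 (-0.65 ± 0.34), which was also the median. None of the 5 had the tumour order of Fat2. Of 10 tested ETS factors related to Etv1, Ets1 was lowest against the cerebellum (-1.02 ± 0.41), followed in size by Fli1 (-0.73 ± 0.59) and Etv6 (0.67 ± 0.34). Their median difference was 0.09; 0 of 10 had the order 1, 2, 4, 3, and 4 of 10 had its reverse (7.63% of all genes).

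The genes nearest to each member were found by the root mean square gap between their 4 tumour-minus-cerebellum differences. Cbln1 lay closest to Slc22a17, with a gap of 0.062, and to Flrt1, at 0.096. The nearest to Cbln3 were further off, Tesc at 0.53 and Neat1 at 0.59. Tesc, which encodes a calcium-binding protein, read 1548, 796, 433 and 437 against 84.0. Fat2 was nearest to Slc12a5, the neuronal chloride exporter gene, at 0.27, with signals of 4599, 1886, 780 and 921 against 2763, and to Ttr, at 0.33. Slc17a7 lay nearest to Map3k3 (0.14) and the potassium channel gene Kcnh1 (0.15), Slc17a6 to Slc19a3 (0.10) and Cox8a (0.12), Camk4 to Rad54b (0.080) and Slc38a9 (0.096), and Cbln4 to Cenpw (0.074) and Zfp438 (0.083). With 4 differences per gene and 14109 genes, close neighbours are to be found for most patterns; that of Cbln3 had the most distant ones of the 7.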

How the data were processed

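The deposited table gives linear intensities, 1 for each probe set on each array. These were, per the submitters' processing notes, made with MAS5 for 4 arrays; for medulloblastoma 3 the tool is not given in the sources used here. In the deposited intensities the mean after trimming 2% at each end was 500.002 on every array, so scaling to 500 left them as they were. No detection calls were used, and the small number of arrays limits the precision.

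Probe sets were named from the platform annotation, and RefSeq (GRCm38.p6) served for symbols by Entrez ID. Each gene was represented by its probe set of highest mean signal. Tumours and cerebellum were compared on log2(signal + 32) with limma 3.58.1 in R 4.3.3 (lmFit, eBayes with a variance trend). Tests were two-sided, with Benjamini-Hochberg adjustment over 14109 genes. The procedure was run on simulated data in which the cerebellum array was given the spread of the tumours. That run cannot show how the fit behaves if the spread of cerebella differs. Arrays were grouped by tissue and numbered in record order, so a number is only a name. Alternatives changed the scaling, the added constant, the filter, the choice of probe set, the variance model, the threshold and the arrays used; where arrays were left out, the genes and probe sets stayed those of all 5.

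The members and lists were chosen with earlier results of these data known. Named were all members, the 3 largest absolute differences and any called gene of each companion list, the largest difference of each marker list, and the 2 nearest tested genes of each member. Dcc, Pcp2, Mbp, Neurod2, Cadps2, Zic1, Calb2, Nefl, Nefm, Nefh, S100b, Gfap, Mog and Mag were named after their values were seen.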

Additional observations from a re-analysis of the deposited data

How the results depend on the processing

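No paired analysis was possible because there is 1 cerebellum array and the replicate numbers are only names. Over all genes, 69 were called; the number was 0 without a variance trend (2007 at an unadjusted p under 0.05), 16 with probe sets averaged, 26 with no filter, 163 at a threshold of 0.1, 1678 within the hmk arrays, 37 for the ken tumours against the cerebellum, and between 0 and 831 with a tumour left out. Scaling to equal medians gave 78 higher and 20 lower genes in place of 44 and 25, and shifted the median over all genes to 0.12, from -0.07. Of the members, 0 were called; 3 were called within the hmk arrays (Cbln1, Cbln3 and Fat2), 1 with the ken tumours (Cbln3), and between 0 and 1 with a tumour left out (Cbln3, without medulloblastoma 1). Members at least 2-fold from the cerebellum in every tumour numbered 1, but 3 within the hmk arrays (Cbln1, Cbln3 and Fat2) and 2 with no filter (Cbln2 and Cbln3). With fewer tumours this bound is looser. The share of all genes that reach it was counted only in the main fit (4.64%), so the other counts have no share beside them. Cbln3, between 2.43 and 3.79, Cbln1, between -1.12 and -0.14, and Cbln4, between 0.40 and 1.0, kept their direction in all 16 alternatives. Some of these, such as the variance model and the filter, cannot change the difference of a gene. The other 4 genes turned in some alternatives. Camk4 (-0.12) was 0.068 with equal medians, 0.25 with the ken tumours, 0.51 with probe sets averaged and 0.045 without medulloblastoma 3. Slc17a6 (-0.15) was 0.038 with equal medians, 0.40 with the ken tumours, 0.21 with probe sets averaged and 0.089 without medulloblastoma 4. Slc17a7 (0.14) was -0.34 within the hmk arrays and -0.22 without medulloblastoma 1, and Fat2 (-0.59) was 0.44 with the ken tumours. With a tumour left out, the ranges were -0.25 to 0.045 for Camk4, -0.36 to 0.089 for Slc17a6, -0.22 to 0.38 for Slc17a7, -1.15 to -0.16 for Fat2, and 0.19 to 0.54 for the median of the mature granule neuron list (0.36). The cause of these changes was not tested.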
